A study of Mus musculus with 128 samples.

Results

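Abca8a, Rpe65, Tbx1, Myl4 and Plscr2 are 5 genes that lie outside every segment with an altered copy number in the Down syndrome models Ts1Cje, Ts65Dn and Dp(16)1/Yey (Dp16), and that were selected on measured values of these arrays, because their RNA differed between trisomic and euploid mice in the adult cortex of at least 1 model. They are 5 of the 21225 probe sets on the array, and all 5 were found in every one of the 12 deposited tables. Since the cortex values chose them, cortex is described here with no test and no calls, and the tests use hippocampus, cerebellum and embryonic forebrain. The question was which of the differences hold in other regions and other models.

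Down syndrome models carry an extra copy of mouse genes whose human counterparts lie on chromosome 21, so triplicated genes tend to give more RNA, while a gene outside the segments keeps its normal copy number. Abca8a belongs to the A subfamily of ATP-binding cassette transporters, which move lipids across membranes. Rpe65 is the retinoid isomerohydrolase of the visual cycle, best known in the retinal pigment epithelium. Tbx1 is a T-box transcription factor of pharyngeal and outflow tract development, and its human ortholog lies in the region deleted in DiGeorge syndrome. Myl4 is the myosin light chain of the atrium and of embryonic muscle, and Plscr2 belongs to the phospholipid scramblase family, which is named for the movement of phospholipids between the leaflets of a membrane.

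On assembly GRCm38.p6, Abca8a spans chr11:110025634-110097580, Rpe65 chr3:159599075-159625307, Myl4 chr11:104546017-104587215 and Plscr2 chr9:92275602-92297752. Tbx1 spans chr16:18580979-18590671, on the chromosome that holds the triplicated segments but outside them. The start regions of Abca8a and Rpe65, which were higher in trisomic brain, and of Tbx1, which was lower, are shown because these genes carried most of the results outside cortex. Each run is the RefSeq sequence on GRCm38.p6 from 250 bases before to 50 after an annotated start, and capitals mark matches on either strand to an E-box (CANNTG) or a GC box (GGGCGG). Tbx1 has 2 annotated starts.
Abca8a, chr11:110095888-110096187, minus strand: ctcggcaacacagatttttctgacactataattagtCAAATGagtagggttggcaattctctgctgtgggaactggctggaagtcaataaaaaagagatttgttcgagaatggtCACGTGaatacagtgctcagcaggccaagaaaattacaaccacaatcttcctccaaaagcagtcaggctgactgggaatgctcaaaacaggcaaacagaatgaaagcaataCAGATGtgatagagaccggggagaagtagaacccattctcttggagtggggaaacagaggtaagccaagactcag
Rpe65, chr3:159598931-159599230, plus strand: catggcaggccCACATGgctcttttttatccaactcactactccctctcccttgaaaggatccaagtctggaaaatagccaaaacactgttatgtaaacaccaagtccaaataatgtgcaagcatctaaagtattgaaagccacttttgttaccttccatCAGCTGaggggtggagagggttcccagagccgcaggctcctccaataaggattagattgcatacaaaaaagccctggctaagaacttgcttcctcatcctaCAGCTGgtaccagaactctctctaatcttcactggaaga
Tbx1, chr16:18588850-18589149, minus strand: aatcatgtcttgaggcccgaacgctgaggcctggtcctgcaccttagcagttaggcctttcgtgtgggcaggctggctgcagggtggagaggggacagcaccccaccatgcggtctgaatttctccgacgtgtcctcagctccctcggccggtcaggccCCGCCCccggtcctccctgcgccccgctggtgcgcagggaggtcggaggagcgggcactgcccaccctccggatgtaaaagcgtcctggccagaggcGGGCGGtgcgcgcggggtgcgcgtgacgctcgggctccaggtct
Tbx1, chr16:18590622-18590921, minus strand: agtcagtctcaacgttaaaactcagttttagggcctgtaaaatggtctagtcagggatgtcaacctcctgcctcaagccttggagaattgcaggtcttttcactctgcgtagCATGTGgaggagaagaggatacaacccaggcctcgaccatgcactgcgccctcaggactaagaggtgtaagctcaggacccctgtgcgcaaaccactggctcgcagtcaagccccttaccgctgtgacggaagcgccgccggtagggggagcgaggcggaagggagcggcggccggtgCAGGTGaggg
The windows of Abca8a and Rpe65 held 3 E-boxes each, as 72.3% of 32851 mouse promoters held at least 1, and no GC box, TATA box (TATAAA) or T-box element (GGTGTGA). One Tbx1 window held 2 GC boxes, where 35.7% of promoters held at least 1, at a GC content of 69.0%, against 44.3% for Abca8a and 45.3% for Rpe65. The other Tbx1 window held 2 E-boxes. The Myl4 window held none of the 4 motifs, of which the TATA box was found in 13.6% and the T-box element in 3.98% of promoters. A match is only a run of letters.

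RNA was measured on Affymetrix Mouse Gene 1.0 ST arrays, whose deposited values are log2 signals. Adult cortex, hippocampus and cerebellum came from the same mice, 5 trisomic and 5 euploid male littermates per model at 6 to 7 months of age with no treatment, so the regions outside cortex are new measurements of the mice that chose the genes. Ts1Cje and Dp16 males were bred to C57BL/6J females (per the study's methods, C57BL/6J or C57BL/6N). Ts65Dn females were bred to B6EiC3Sn.BLiAF1 males, so Ts65Dn mice and their euploid littermates are of a hybrid background. Forebrains at E15.5 came from other animals of both sexes, 5 trisomic and 5 euploid Ts1Cje, 6 and 7 Ts65Dn, and 6 and 6 Dp16 embryos. The study lists fewer Ts65Dn embryos in each group than the files hold. Trisomic mice of all 3 models share triplication of the distal part of MMU16. Ts65Dn mice also carry an extra MMU17 segment without human chromosome 21 counterparts, and Ts1Cje mice lack 1 copy of a few MMU12 genes. No animals were pooled. A lower RNA signal in whole tissue cannot tell fewer cells of a type from less RNA per cell.

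Among 128 arrays from 65 animals, libraries of 3 animals stood apart. The Dp16 animal labelled Eup274 had signals of 65 to 68 triplicated genes 0.35, 0.44 and 0.47 above the mean of the other 4 euploid mice (log2) in cortex, hippocampus and cerebellum, where those 4 mice lay between -0.05 and 0.05 and the 5 trisomic mice between 0.35 and 0.48. This goes against its label, and Dp16 results are given with and without it. The hippocampal library of the Ts65Dn animal TS18 had a mean of 6.57 over 10 hippocampal marker genes, against 7.59 to 8.02 in the other 9 hippocampal libraries of that model. The 60 cortex and cerebellum libraries lay at 6.39 to 6.78 for these genes. The Ts65Dn embryo TSm01 had a mean of 9.19 over 14 cartilage and embryonic muscle genes, a list written after its values were seen, against 5.96 to 6.20 in the other 12 embryos. Array medians lay between 6.45 and 6.74 in adult tables and between 7.24 and 8.55 in embryonic tables. Each table was treated as normalized on its own, so levels were compared only within a table.

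The 5 trisomic Ts65Dn cortices had Myl4 signals of 6.62, 6.76, 6.79, 6.83 and 6.86, and the 5 euploid ones had 7.22, 7.28, 7.32, 7.55 and 7.61. The groups were far apart, and the mean was lower by a log2 change of -0.62 ± 0.08 (SE), a fold change (FC) of 0.65. In Ts1Cje cortex the Myl4 change was -0.19 ± 0.15 with trisomic mice at 7.58 to 8.06 and euploid mice at 7.54 to 8.33, and in Dp16 cortex it was -0.02 ± 0.13. Those groups overlapped, so the large Myl4 difference was seen in Ts65Dn cortex alone among the 3 cortices.

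Plscr2 also separated the Ts65Dn cortices, with trisomic signals of 5.13, 5.21, 5.28, 5.45 and 5.54 and euploid signals of 4.65, 4.67, 4.71, 4.77 and 4.94. The log2 change was 0.58 ± 0.09, an FC of 1.49. In Dp16 cortex the change pointed the other way, at -0.31 ± 0.12 with trisomic mice at 4.03 to 4.49 and euploid mice at 4.33 to 4.85, and it stayed at -0.31 ± 0.13 without Eup274. In Ts1Cje cortex it was 0.16 ± 0.10. The scramblase thus had no common direction in cortex.

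Abca8a was higher in all 3 trisomic cortices, by 0.40 ± 0.14 in Ts1Cje, 0.63 ± 0.12 in Ts65Dn and 0.39 ± 0.11 in Dp16. In Ts65Dn the trisomic signals of 6.43, 6.45, 6.71, 6.72 and 6.84 all exceeded the euploid signals of 5.78, 5.79, 5.85, 6.19 and 6.37. Rpe65 was also higher in all 3, by 0.39 ± 0.11 in Ts1Cje, 0.73 ± 0.15 in Ts65Dn and 0.44 ± 0.16 in Dp16. The Rpe65 groups were separate in Ts1Cje, where trisomic mice lay at 6.08 to 6.53 and euploid mice at 5.71 to 6.05, and overlapped by 1 euploid animal in Ts65Dn.

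Tbx1 was lower in all 3 cortices, by -0.34 ± 0.08 in Ts1Cje, -0.33 ± 0.09 in Ts65Dn and -0.26 ± 0.11 in Dp16. The Ts1Cje trisomic signals were 6.08, 6.13, 6.22, 6.25 and 6.28 and the euploid signals 6.46, 6.47, 6.47, 6.62 and 6.66, without overlap. In Dp16 the lowest euploid signal, 6.16, was that of Eup274, and without it the change was -0.33 ± 0.10 and the groups separated. Groups did not overlap for 2 higher genes and 1 lower gene in Ts65Dn cortex, where 0.886% and 0.448% of probe sets did so, and for 1 higher and 1 lower gene in Ts1Cje cortex, where 0.363% and 0.481% did. In Dp16 cortex all 5 genes overlapped, and without Eup274 1 lower gene did not, as did 0.98% of probe sets. Nothing is read from these shares, since the same contrasts chose the genes.

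**Figure D1:**
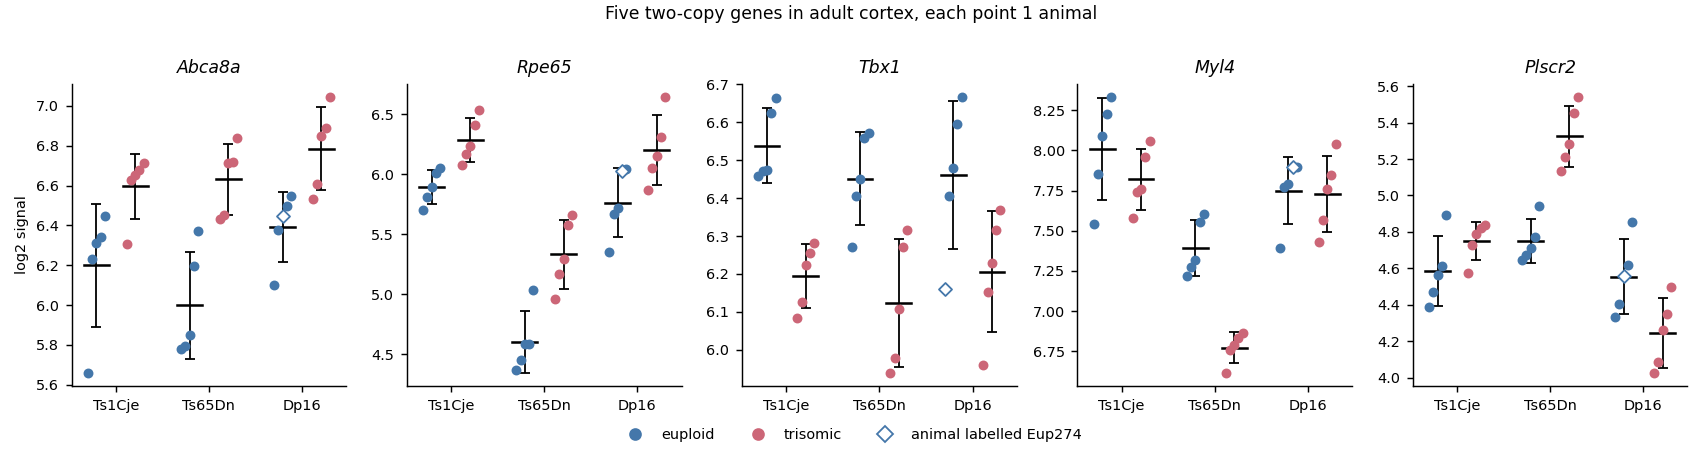
Log2 signals of the 5 genes in adult cortex (vertical axis), 1 point per animal, with euploid mice in blue, trisomic mice in red, the group mean as a bar and the SD as whiskers; scales differ between panels. Myl4 and Plscr2 separate the Ts65Dn groups, while Tbx1 is lower and Abca8a and Rpe65 are higher on average in all 3 models, and the Dp16 animal labelled Eup274 (open diamond) has the lowest Tbx1 signal of its group.

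Among cell type markers, those of the choroid plexus differed most in cortex. Of 10 such markers, 0 were higher in Dp16 cortex and 1 in Ts1Cje cortex, with median changes of -0.35 and -0.20, and 5 in Ts65Dn cortex with a median of 0.01. Of 5 measured erythroid and blood markers, 4 were higher in each cortex, with medians of 0.11 in Ts1Cje, 0.03 in Ts65Dn and 0.21 in Dp16. Of 12 fibroblast and meninges markers, 1 was higher in Dp16 cortex with a median of -0.14, and of 10 microglia markers 1 was higher in Ts1Cje cortex with a median of -0.13. Of 15 oligodendrocyte markers, 11 were higher in Ts65Dn cortex with a median change of 0.07, and 5 and 6 of 15 in Ts1Cje and Dp16, with medians of -0.06 and -0.01. All 10 endothelial markers were higher and all 10 markers of cortical excitatory neurons lower in Ts65Dn cortex, with medians of 0.06 and -0.06. Their part in the changes of the 5 genes was not tested.

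Outside cortex, a gene was called differentially expressed (DEX) below a false discovery rate (FDR) of 10%, adjusted over all probe sets and all 12 comparisons together. The mean of Abca8a, the lipid transporter, was higher in trisomic mice in the hippocampus and cerebellum of all 3 models. The changes in hippocampus were 0.39 ± 0.08 in Ts1Cje, 0.45 ± 0.15 in Ts65Dn and 0.34 ± 0.14 in Dp16, and in cerebellum 0.36 ± 0.12, 0.36 ± 0.11 and 0.28 ± 0.13. The mean was higher in trisomic mice of all 3 models in both regions for 4.41% of all probe sets. None of the 6 passed the FDR in a single region, with adjusted P values by limma between 0.16 and 0.81, while 5 of the 6 had an unadjusted P under 0.05, as did 4.69% to 10.3% of probe sets in these 6 comparisons.

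In Ts1Cje hippocampus the trisomic Abca8a signals were 6.85, 7.07, 7.16, 7.19 and 7.35 and the euploid signals 6.65, 6.66, 6.73, 6.82 and 6.83. In Ts1Cje cerebellum they were 6.17, 6.18, 6.24, 6.25 and 6.58 against 5.57, 5.76, 6.00, 6.15 and 6.16. Every trisomic mouse stood above every euploid mouse in both regions, though the nearest pairs were close.

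In Dp16 hippocampus the trisomic signals of 7.03, 7.06, 7.19, 7.38 and 7.40 faced euploid signals of 6.56, 6.69, 6.86, 6.88 and, in Eup274, 7.38. In Dp16 cerebellum trisomic signals of 6.26, 6.26, 6.32, 6.34 and 6.37 faced 5.68, 5.87, 5.98, 6.01 and, again in Eup274, 6.59. Eup274 was the only euploid animal inside or above the trisomic range in both regions. Without it the change rose to 0.46 ± 0.10 in hippocampus and 0.42 ± 0.08 in cerebellum, and the cerebellar change was then DEX (limma, adjusted P = 0.0897), where 0.353% of probe sets were. In cortex Eup274 had an Abca8a signal of 6.45, below the trisomic mice at 6.53 to 7.04. The cortex change without Eup274 was 0.40 ± 0.12.

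In Ts65Dn hippocampus trisomic signals of 6.22, 6.44, 6.63, 6.88 and 6.92 overlapped euploid signals of 5.81, 6.13, 6.16, 6.30 and 6.46. The highest was TS18, the library whose hippocampal markers were low, and without that animal the change was 0.37 ± 0.15. All 15 oligodendrocyte markers were higher in this comparison, with a median change of 0.25 and mean levels of 8.91 to 9.14 in euploid and 8.96 to 9.89 in trisomic libraries, the last in TS18. All 10 choroid plexus markers were lower, with a median of -0.82 and mean levels of 7.74 to 8.43 in euploid and 6.12 to 8.17 in trisomic libraries. The group medians of these levels were 8.08 and 7.86. These marker changes include TS18 and are not given without it. The part of both marker lists in the Abca8a change was not tested. In Ts65Dn cerebellum, where the Abca8a change was 0.36 ± 0.11, 8 of 15 oligodendrocyte markers were higher, with a median of 0.01.

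Endothelial markers had slightly higher medians in all adult trisomic tissue. Their median change over 10 genes lay between 0.03 and 0.14 in the 9 adult comparisons, and 1 of them, Ly6c1, was DEX in Ts1Cje hippocampus at 0.50. Mean levels of the list were 8.08 to 8.16 in euploid and 8.17 to 8.34 in trisomic Ts1Cje hippocampus, and 8.09 to 8.21 against 8.21 to 8.31 in Dp16 hippocampus. Among the other cell type lists, the oligodendrocyte marker Mal was DEX in Ts1Cje hippocampus at 0.30, where 0.316% of probe sets were. The fibroblast and meninges marker Dcn was DEX in Ts1Cje cerebellum at 0.50, where 0.429% were. The part of these cell types in the Abca8a result was not tested.

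Averaging hippocampus and cerebellum in each animal gave 1 value per mouse from regions that did not choose the genes. The Ts1Cje mean of Abca8a was higher by 0.37 ± 0.08, with trisomic mice at 6.51 to 6.87 and euploid mice at 6.11 to 6.50, and passed the FDR (limma, adjusted P = 0.084). Leaving out 1 animal raised the adjusted P above 0.1 for 8 of 10 animals, with limma adjusted P values from 0.045 to 0.21, and only the fits without TS349 or Eup324 kept the call. The Ts65Dn mean was higher by 0.40 ± 0.09 (limma, adjusted P = 0.16) and by 0.36 ± 0.09 without TS18. Of 10 single omissions only that of Eup15, the euploid animal with the highest mean, passed the FDR (0.47, limma adjusted P = 0.059). Leaving out the highest euploid value must widen the difference, so nothing is read from this omission. The Dp16 mean was higher by 0.31 ± 0.12 (limma, adjusted P = 0.46), and without Eup274 by 0.44 ± 0.06 (limma, adjusted P = 0.0062), with trisomic mice at 6.66 to 6.86 and the other 4 euploid mice at 6.22 to 6.43. Over the other 9 single omissions its adjusted P by limma was 0.46 to 0.61.

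Rpe65, the retinoid isomerase, was higher in the hippocampus of Ts1Cje and Dp16 by 0.55 ± 0.11 (FC 1.47) and 0.50 ± 0.11 (FC 1.42), and by 0.20 ± 0.13 in Ts65Dn. In Ts1Cje the trisomic signals were 4.57, 4.58, 4.76, 4.96 and 4.97 and the euploid signals 3.99, 4.09, 4.15, 4.36 and 4.49. In Dp16 they were 4.60, 4.64, 4.70, 4.72 and 5.14 against 4.10, 4.12, 4.14, 4.41 and 4.50. Neither pair of groups overlapped, and the adjusted P values by limma, 0.11 and 0.22, missed the FDR. Leaving out TS366 or Eup365 took the Ts1Cje change past it (0.60 and 0.62, limma adjusted P = 0.096 and 0.052, the other 8 omissions above 0.1). Both omissions widened the difference, so nothing is read from them.

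In cerebellum the Rpe65 changes were smaller, 0.15 ± 0.10 in Ts1Cje, 0.23 ± 0.11 in Ts65Dn and 0.04 ± 0.13 in Dp16, and all groups overlapped. Without Eup274 the Dp16 value turned to -0.05 ± 0.12, so Dp16 cerebellum has no direction. The hippocampal change exceeded the cerebellar one by 0.41 ± 0.14 in Ts1Cje and 0.46 ± 0.18 in Dp16, and by -0.03 ± 0.19 in Ts65Dn. None of these 3 region differences passed the FDR (limma with the animal as a block, adjusted P = 1.00 each), where at most 0.00471% of probe sets did, although those of Ts1Cje and Dp16 had an unadjusted P under 0.05, as did 5.52% and 3.18% of probe sets (4.74% in Ts65Dn). Without Eup274 the Dp16 difference was 0.59 ± 0.16 (limma, adjusted P = 0.94).

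Rpe65 was dim in these regions, at percentile 13.5 to 20.6 of the array's signals (mean over all animals of a table) in hippocampus and 10.7 to 12.9 in cerebellum, against 26.7 to 42.4 in cortex. Signals this low may lie near the array's background, which was not measured, and its part in the Rpe65 changes was not tested. The mean of hippocampus and cerebellum was higher by 0.35 ± 0.07 in Ts1Cje (limma, adjusted P = 0.081), by 0.21 ± 0.08 in Ts65Dn (limma, adjusted P = 0.44) and by 0.27 ± 0.08 in Dp16 (limma, adjusted P = 0.33), or 0.25 ± 0.09 without Eup274. The Ts1Cje call was lost on leaving out 7 of 10 animals, with limma adjusted P values from 0.043 to 0.19, and kept without TS323, Eup350 or Eup365. Of 11 markers of the retinal pigment epithelium, 2 were higher in Ts1Cje hippocampus and 4 in Dp16 hippocampus, with medians of -0.10 and -0.01, and their part in the Rpe65 result was not tested.

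Tbx1, the T-box factor, fell in Ts1Cje hippocampus by 0.44 on the log2 scale (SE 0.06, FC 0.74; limma, adjusted P = 0.013). The trisomic signals were 5.97, 6.06, 6.18, 6.21 and 6.25 and the euploid signals 6.47, 6.51, 6.59, 6.64 and 6.65, with a clear gap between the groups. This was the 1 call of the 5 genes in a single region outside cortex with all animals kept, in a comparison where 0.316% of probe sets were DEX and 0.066% were DEX and lower. It passed the FDR on leaving out each of the 10 animals in turn, with limma adjusted P values up to 0.044, and by the methods' t-test, an unpaired test without moderation, at an adjusted P of 0.088. The Tbx1 signal in adult brain stood at percentile 45.4 to 49.4 of the array, so a filter that leaves out probe sets below the median signal removed Tbx1 and with it the call.

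In Ts1Cje cerebellum the trisomic Tbx1 signals of 6.24, 6.38, 6.42, 6.45 and 6.66 met the euploid signals of 6.66, 6.69, 6.74, 6.78 and 6.85 at 1 animal, and the change was -0.31 ± 0.08 (limma, adjusted P = 0.33). The mean of both regions fell by 0.38 on the log2 scale (SE 0.04; limma, adjusted P = 0.00054), with trisomic mice at 6.24 to 6.32 and euploid mice at 6.61 to 6.71. The call was kept on leaving out any animal, with limma adjusted P values up to 0.0022. All 3 of the calls in the Ts1Cje mean, of Tbx1, Abca8a and Rpe65, stand against 0.636% of probe sets called in that comparison.

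In Dp16 hippocampus trisomic Tbx1 signals of 5.89, 6.10, 6.13, 6.17 and 6.25 faced euploid signals of 6.51, 6.53, 6.54 and 6.87, and 6.18 in Eup274. The change was -0.42 ± 0.11 (limma, adjusted P = 0.40), and without Eup274 it was -0.50 ± 0.09, DEX (limma, adjusted P = 0.078) where 0.311% of probe sets were. In cerebellum the change was -0.22 ± 0.12, with Eup274 at 6.28 below the other euploid mice at 6.62 to 6.96, and without it -0.32 ± 0.09 and the groups were separate. The Dp16 mean of both regions was -0.32 ± 0.09 (limma, adjusted P = 0.30), and without Eup274 it was -0.41 ± 0.06 (limma, adjusted P = 0.0089), one of 0.773% of probe sets called. Over the other 9 single omissions its adjusted P by limma was 0.32 to 0.46.

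Ts65Dn hippocampus and cerebellum gave no such decrease. Tbx1 signals of 6.16 to 6.58 in trisomic and 6.09 to 6.61 in euploid hippocampus covered the same range, at a change of 0.01 ± 0.12, and 0.00 ± 0.13 without TS18, and the cerebellar change was -0.09 ± 0.09. In the mean of both regions the Ts1Cje change minus the Ts65Dn change was -0.34 ± 0.11, which did not pass the FDR (limma, adjusted P = 0.45). Ts65Dn minus Dp16 it was 0.28 ± 0.11 (limma, adjusted P = 0.55), and 0.37 ± 0.09 without Eup274 (limma, adjusted P = 0.13). None of the 15 model differences of the 5 genes passed the FDR, and between 0.0424% and 0.146% of probe sets did. An unadjusted P under 0.05 was found for 2 of the 15, both of Tbx1, and for 8.99% (Ts1Cje minus Ts65Dn), 2.13% (Ts1Cje minus Dp16) and 11.4% (Ts65Dn minus Dp16) of probe sets.

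**Figure D2:**
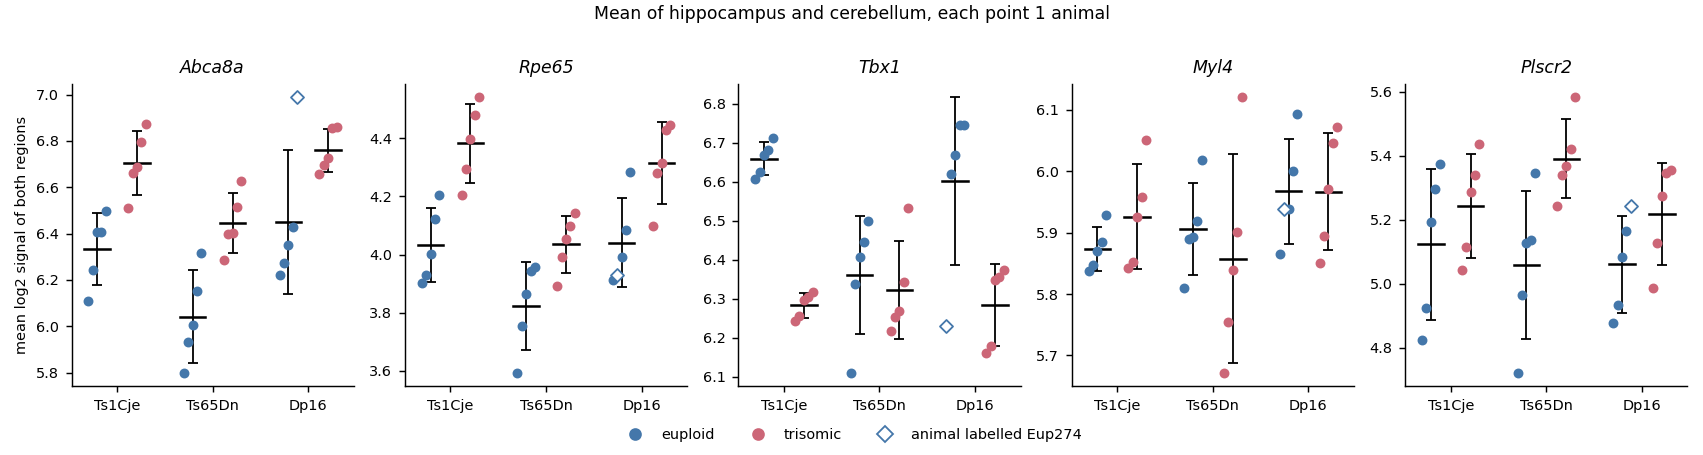
Mean log2 signal of hippocampus and cerebellum per animal (vertical axis), 1 point per mouse, with euploid mice in blue, trisomic mice in red, the group mean as a bar and the SD as whiskers; scales differ between panels. Tbx1 separates the Ts1Cje groups at 6.24 to 6.32 against 6.61 to 6.71, and the share of probe sets with separate groups was not counted for these means. The open diamond of Eup274 lies beside the trisomic Dp16 mice for Tbx1 and above them for Abca8a.

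**Figure D3:**
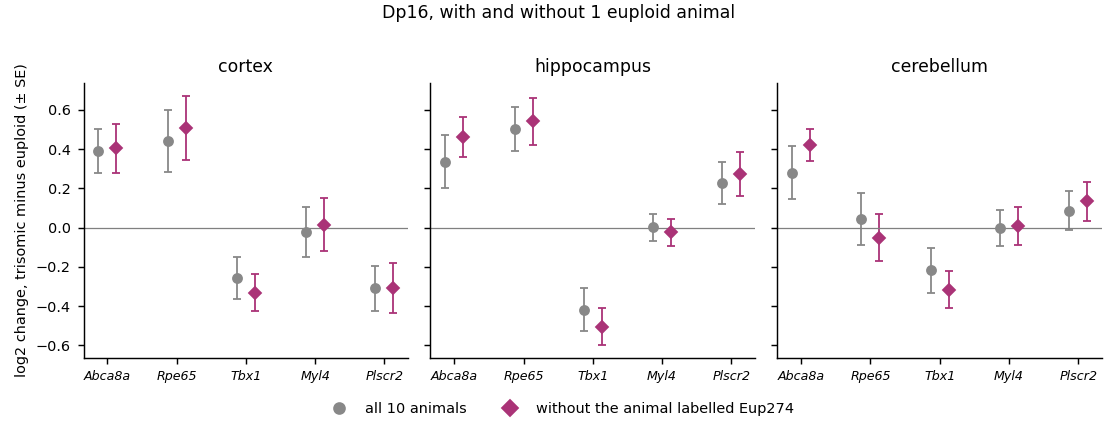
Log2 change (trisomic minus euploid, vertical axis) of each gene in 3 adult regions of Dp16, with SE as whiskers, with all 10 animals (grey circles) and without the animal labelled Eup274 (purple diamonds). The changes of Abca8a in hippocampus and cerebellum and of Tbx1 in all 3 regions moved away from 0 without this animal, and Rpe65 in cerebellum crossed 0.

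Myl4, lower in Ts65Dn cortex, had no matching change elsewhere. Its trisomic signals in Ts65Dn hippocampus were 5.78 to 6.43 and the euploid signals 6.14 to 6.44, a change of -0.15 ± 0.12, and -0.16 ± 0.12 without TS18. In Ts65Dn cerebellum the change was 0.05 ± 0.07. In the other models Myl4 changed by 0.10 ± 0.05 in Ts1Cje hippocampus and by 0.00 in Dp16 hippocampus and in both cerebella, with SE of 0.07 to 0.09, and the lowest adjusted P by limma outside cortex and forebrain was 0.825. Its signal stood at percentile 56.4 to 69.2 of the array in cortex and at 35.2 to 44.4 in hippocampus and cerebellum.

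Plscr2, the scramblase that was higher in Ts65Dn cortex, was also higher in Ts65Dn cerebellum, by 0.46 ± 0.10 (FC 1.37). The trisomic signals of 5.56, 5.67, 5.77, 5.83 and 5.90 all exceeded the euploid signals of 5.09, 5.10, 5.29, 5.42 and 5.55. The adjusted P was 0.18 by limma, and 0.068 without Eup15, the euploid animal with the highest signal. Only this omission of 10 passed the FDR, and it must widen the difference, so nothing is read from it. Across hippocampi the change was alike in size, 0.23 ± 0.14 in Ts1Cje, 0.21 ± 0.16 in Ts65Dn and 0.23 ± 0.11 in Dp16, with overlapping groups in all 3. It was 0.15 ± 0.16 in Ts65Dn hippocampus without TS18. In Ts1Cje and Dp16 cerebellum it was 0.02 ± 0.14 and 0.09 ± 0.10, within the SE. Plscr2 was dim, at percentile 29.6 to 33.9 of the array in cerebellum, 24.6 to 27.2 in hippocampus and 17.8 to 27.6 in cortex. The mean of both regions was higher by 0.33 ± 0.10 in Ts65Dn (limma, adjusted P = 0.34), 0.12 ± 0.10 in Ts1Cje and 0.16 ± 0.09 in Dp16. Without TS18 the Ts65Dn mean change of Plscr2 was 0.28 ± 0.10 and that of Rpe65 0.22 ± 0.08, and without Eup274 the Dp16 mean change of Plscr2 was 0.20 ± 0.09, none past the FDR.

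Counted over the 5 genes, groups did not overlap for 2 higher genes and 1 lower gene in Ts1Cje hippocampus, where 1.24% and 0.881% of probe sets did so. The counts were 1 higher gene in Dp16 hippocampus (1.76% of probe sets), 1 in Ts1Cje cerebellum (1.16%) and 1 in Ts65Dn cerebellum (0.966%). Without Eup274, 2 higher genes and 1 lower gene were separate in Dp16 hippocampus (3.45% and 2.24%), and 1 and 1 in Dp16 cerebellum (1.57% and 1.31%). No gene was DEX by limma or by the t-test of the methods in Ts65Dn hippocampus (0.132% of probe sets), Dp16 hippocampus (0.066%), Ts1Cje cerebellum (0.429%), Ts65Dn cerebellum (0.297%) or Dp16 cerebellum (0.0188%), with 1, 3, 2, 2 and 0 genes at an unadjusted P under 0.05. The shares of all probe sets under that limit were 4.69%, 10.1%, 9.06%, 6.87% and 5.01% in the same order, and 10.3% in Ts1Cje hippocampus. In the means of both regions none was called in Ts65Dn (0.367% of probe sets) or Dp16 (0.17%) with all animals kept.

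No gene passed the FDR in the E15.5 forebrain. Abca8a, higher in all adult comparisons, changed by 0.04 ± 0.04 in Ts1Cje, 0.02 ± 0.18 in Ts65Dn and -0.26 ± 0.11 in Dp16 forebrain. In Dp16 the trisomic embryos ranged from 5.79 to 6.34 with a median of 6.17 and the euploid embryos from 6.05 to 6.56 with a median of 6.41. Rpe65 changed by -0.02 ± 0.07, 0.04 ± 0.09 and 0.14 ± 0.10, at percentile 5.80 to 9.48 of the array.

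Tbx1 changed by -0.16 ± 0.07 in Ts1Cje and -0.21 ± 0.09 in Dp16 forebrain, with overlapping groups and limma adjusted P values of 0.77 and 0.79. In Ts65Dn forebrain the change was 0.02 ± 0.25, where TSm01, the embryo with high cartilage and muscle genes, had a Tbx1 signal of 8.21 against 6.15 to 6.65 in the other 5 trisomic and 6.66 to 7.04 in the 7 euploid embryos. Without TSm01, left out after its values were seen, the Tbx1 change was -0.27 ± 0.09 (limma, adjusted P = 0.66). The groups then parted by little, with trisomic embryos up to 6.65 and euploid embryos from 6.66. The share of probe sets so separated was not counted, and nothing is read from the separation. Myl4 in TSm01 was 8.52 against 6.26 to 6.56 in the other 12 embryos. The Myl4 change went from 0.26 ± 0.29 to -0.09 ± 0.04 without TSm01.

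Plscr2 changed by 0.13 ± 0.06 in Ts1Cje, -0.05 ± 0.08 in Ts65Dn and -0.01 ± 0.06 in Dp16 forebrain. No gene was DEX by limma or by the methods' t-test in Ts1Cje (0.259% of probe sets), Ts65Dn (0.264%) or Dp16 forebrain (0.0895%), and 2, 0 and 2 had an unadjusted P under 0.05, against 4.39%, 4.74% and 5.91% of probe sets.

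**Figure D4:**
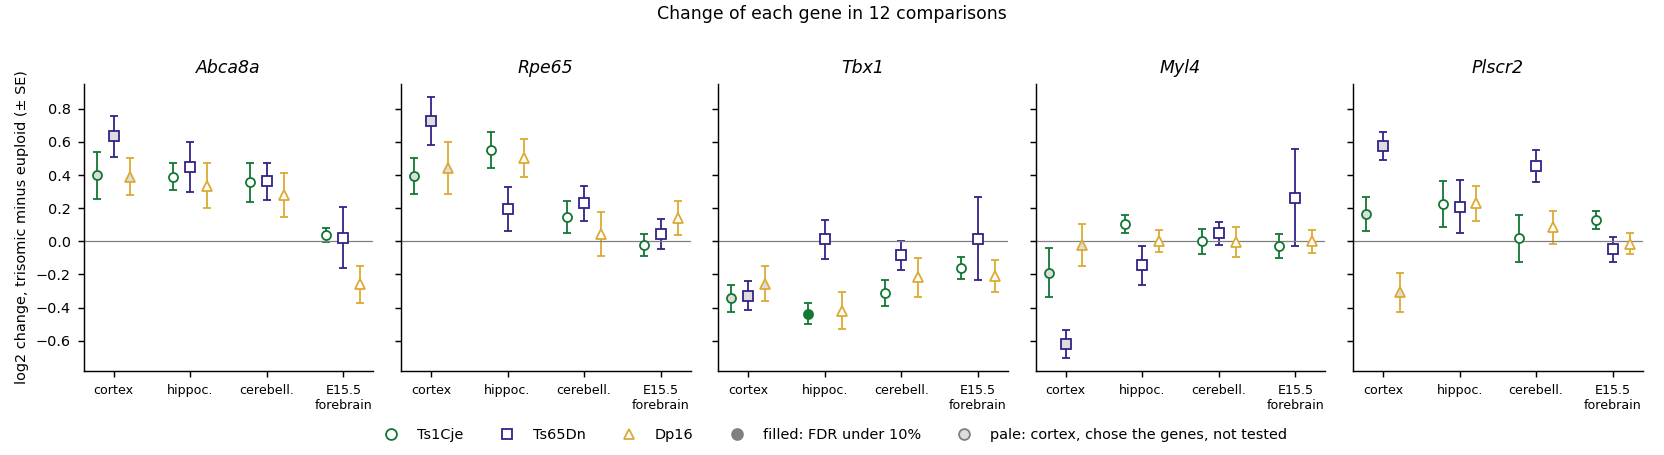
Log2 change (trisomic minus euploid, vertical axis) of each gene in 12 comparisons, with limma SE as whiskers, for Ts1Cje (circles), Ts65Dn (squares) and Dp16 (triangles); filled symbols passed an FDR of 10%, and pale grey symbols are cortex, which was not tested. Outside cortex, which chose the genes, Abca8a lies above 0 in all 6 adult comparisons, from 0.28 to 0.45. So do Rpe65, from 0.04 to 0.55, and Plscr2, from 0.02 to 0.46, and 4.41% of all probe sets. The lowest values, of Rpe65 in Dp16 cerebellum and Plscr2 in Ts1Cje cerebellum, turned sign on leaving out some single animals, so they have no direction. Tbx1 lies near 0 in Ts65Dn hippocampus and at -0.44 and -0.42 in the hippocampus of the other models.

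None of the closest relatives of the 5 genes was DEX in any of the 12 comparisons. Abca8b, the neighboring copy of Abca8a and a possible source of shared probe signal, changed by -0.13 to 0.19 in the 9 adult comparisons, and all 15 measured A-subfamily transporters together gave no DEX call in 12 comparisons. Plscr1 changed by -0.13 to 0.08. Among visual cycle genes, Lrat, the acyltransferase that makes the substrate of Rpe65, changed by -0.10 to 0.32, and Rlbp1, which carries retinoids, by -0.61 to 0.13. Myl7, another atrial light chain, changed by -0.18 to 0.23 and Tnnt2, a heart troponin, by -0.15 to 0.16.

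Lists chosen with earlier results known gave 0 DEX genes over the 12 comparisons among 30 retinoid genes, 16 T-box factors, 11 myosin light chains, 17 atrial and heart muscle genes, 15 scramblases and 24 genes beside Tbx1 whose human orthologs are deleted in DiGeorge syndrome, the 5 genes themselves being left out of each list. Median changes of these lists lay between -0.12 and 0.14 in the 12 comparisons, and those of all probe sets between -0.02 and 0.03.

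The measured genes on both sides of each gene also gave 0 DEX calls. They numbered 20 each for Abca8a, Tbx1, Myl4 and Plscr2 and 11 for Rpe65, which lies near the end of its chromosome. Over the 6 comparisons of hippocampus and cerebellum, which did not choose the genes, their median changes lay between -0.09 and 0.12 around Abca8a, -0.01 and 0.09 around Rpe65, and -0.05 and 0.11 around Tbx1. The medians of Abca8a, Rpe65 and Tbx1 themselves were 0.36, 0.21 and -0.27. Around Myl4 the neighbors lay between -0.16 and 0.12 and around Plscr2 between -0.12 and 0.17, where Myl4 and Plscr2 had medians of 0.00 and 0.22. Neighbors above 0 in all 6 comparisons numbered 2 each beside Abca8a and Plscr2 and 1 each beside Rpe65, Tbx1 and Myl4. Among all probe sets 4.41% were so. Beside Plscr2, 1 neighbor was below 0 in all 6. The 2 beside Abca8a were both of the A subfamily, Abca6 by 0.00 to 0.17 and Abca5 by 0.04 to 0.15.

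**Figure D5:**
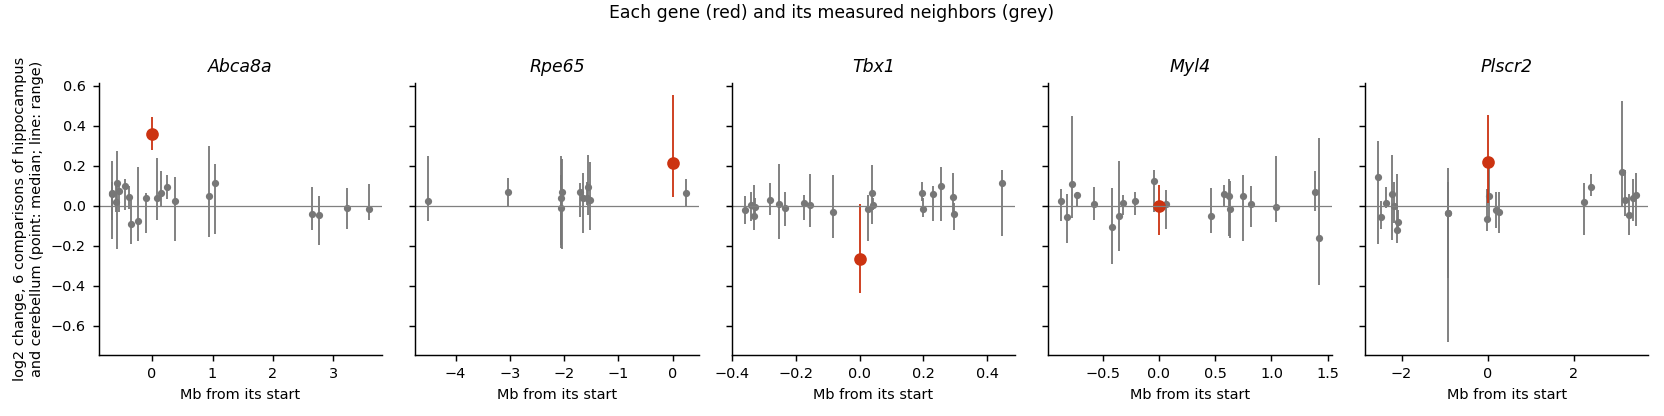
Log2 change (trisomic minus euploid, vertical axis) of each gene (red) and its measured neighbors (grey) by distance in Mb from the gene's start (horizontal axis); points are medians and lines the range over 6 comparisons of hippocampus and cerebellum. Abca8a, Rpe65 and Tbx1 have medians of 0.36, 0.21 and -0.27, and their neighbors have medians between -0.09 and 0.12.

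Over 90 adult values of 30 animals, each centered on its table, the probe sets most like Abca8a were B3galt5, Slc5a3 and Dnajc28 (Pearson r = 0.84, 0.83 and 0.81), all on MMU16. The most like Rpe65 were Ttc3, Ifnar1 and Hlcs (r = 0.63, 0.61 and 0.60), again on MMU16. Tbx1 was most like Cbs, Mxd4 and Rasl12 (r = 0.72, 0.62 and 0.57). Plscr2 was most like Adamts5, Snx9 and Amigo2 (r = 0.55, 0.47 and 0.47), and Myl4 most like Selenok-ps1, Olfr623 and Micos13 (r = 0.46, 0.44 and 0.42). Among the 5 genes, r was -0.66 between Abca8a and Tbx1, 0.51 between Abca8a and Rpe65, and -0.53 between Rpe65 and Tbx1. These values describe the pattern only, since the points share animals and carry the difference between genotypes that chose the genes.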

How the data were processed

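Log2 signals of 21225 probe sets were deposited by the authors in 12 tables. These signals were made by RMA (background correction, quantile normalization, summarization) with a custom MBNI probe annotation. Each table was treated as normalized apart. The number of arrays limits precision. Probe sets were matched to genes by Entrez identifier and RefSeq (20768 named). Repeat arrays of an animal were averaged. Trisomic groups were compared with euploid littermates in limma (3.58.1; R 4.3.3), with Benjamini-Hochberg adjustment over all 254700 P values. Means of hippocampus and cerebellum, within-animal region differences and model differences were fitted likewise, each adjusted over 3 models or pairs. Groups came from the sample labels, and animals were matched across regions by the number in the titles.

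The 5 genes, the lists and the tests were chosen with earlier results of these data known. Genes named are the members, their 3 most alike probe sets, close relatives and DEX list members. Deposited cortex values served only as description. Scripts were tested on simulated data. Alternatives covered the test, adjustment, moderation, weights, dim probe sets, normalization, repeats, FDR, sex and single animals, and the embryo TSm01 was left out after its values were seen. Tables and figures were made in Python version 3.11.15.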

Additional observations from a re-analysis of the deposited data

Results flagged for a closer look

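Of 120 groups of animals, 10 held a value whose gap to the nearest other value was large for the range of its group, where chance flags about 1 in 20 groups. Abca8a was 7.73 in the Ts1Cje euploid embryo Eup15, against 7.60 to 7.61 in the others. In adult Ts1Cje, Abca8a was 6.58 in the cerebellum of TS366, 6.31 in the cortex of TS348 and 5.66 in the cortex of Eup347. Rpe65 was 3.63 in the Ts65Dn embryo TSm14 and 5.14 in the Dp16 hippocampus of TS277. Tbx1 was 8.21 and Myl4 8.52 in the Ts65Dn embryo TSm01, against at most 6.65 and 6.48 in the other trisomic embryos, and this embryo also had the high cartilage and muscle genes. Myl4 was 7.39 in the Dp16 cortex of Eup279, and Plscr2 was 4.11 in the Ts65Dn embryo TSm04, against 4.33 to 4.35 in the other trisomic embryos.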

How the results depend on the processing

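For alternatives other than leaving out Eup274, the share of all probe sets called was not counted, so nothing is read from a higher count. Among the counts of called genes, the alternatives that changed a count were these. In Ts1Cje hippocampus (1 called) adjustment within the comparison, the trend and an FDR of 20% gave 3 each, array weights and joint quantile normalization gave 2 each, and without dim probe sets, which left out Tbx1, the count was 0. An FDR of 20% gave 1 in Ts65Dn cerebellum (0 called). Without Eup274 the Dp16 counts were 1 in hippocampus, 1 in cerebellum and 2 in the mean of both, from 0 each. Leaving out 1 animal at a time gave 1 to 2 in Ts1Cje hippocampus, 0 to 1 in Dp16 hippocampus, Ts65Dn cerebellum, Dp16 cerebellum and the Ts65Dn mean, 1 to 2 in the Ts1Cje mean (3 called) and 0 to 2 in the Dp16 mean; the 2 in Ts1Cje hippocampus came without TS349, TS366 or Eup365. The Ts1Cje mean fell to 1 without TS320, TS348, TS366, Eup347 or Eup371. The sign turned for the log2 change of Rpe65 in Dp16 cerebellum with array weights (-0.00579) and without Eup274 (-0.0508), over a range of -0.051 to 0.11 with single animals left out, and for Plscr2 in Ts1Cje cerebellum, with a range of -0.086 to 0.11. The cause of these changes was not tested. Fits without the replicate block, which treat both regions of an animal as unpaired, gave 0 region differences in each of Ts1Cje, Ts65Dn and Dp16, as did the paired fits; the pairing comes from the animal numbers. Other counts kept their value, and no cortex change larger than its SE turned its sign. Rpe65, Plscr2 and Tbx1 lay below the median signal of every table and Abca8a and Myl4 below that of some, and 5 to 7 animals a group limit every result.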
